A study of Mus musculus with 6 samples.

Results

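The collagen genes of the mouse were followed here in 6 RNA libraries from livers of male mice fed a high-fat diet. Members were all genes whose symbol in the deposited tables has the form of a collagen chain name, Col followed by a type number, the letter a and a chain number, and 44 of the 55487 listed genes met this rule. The 3 mutant libraries come from livers that carry an Rxra allele written f/f together with a heterozygous Cre transgene under the albumin promoter, which drives recombination in hepatocytes. The 3 control libraries come from livers with the same heterozygous Cre transgene and no Rxra allele named, and the strain is C57/Bl6J by label in both groups. The labels do not say whether each library is a separate animal, so n counts libraries. The series text calls the mutation S65A, the sample titles call the controls WT, and no source used here gives ages. Because the change is directed at hepatocytes, the stellate cells, fibroblasts and endothelial cells that make most fibrillar collagen in liver are not its labelled target.

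Collagens are the main structural proteins of the extracellular matrix. Each is built from chains that wind into a triple helix, and the chains are modified and folded in the endoplasmic reticulum, trimmed outside the cell and crosslinked. Fibrillar collagens form the scar of a fibrotic liver, where activated stellate cells and portal fibroblasts are their main source, type IV collagen forms the sheet of basement membranes, and type VI forms beaded filaments around cells.

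Library totals were 35847386 to 43162557 estimated counts. Levels are given as TPM, which scale for transcript length and library and so allow genes to be compared, and as CPM after TMM scaling, which sets the typical gene equal between groups. Fold changes are mutant over control on the log2 scale with a standard error, from edgeR's quasi-likelihood test, and a gene was called where its Benjamini-Hochberg adjusted p over 14286 tested genes was under 0.05. Rxra had 174, 119 and 148 TPM in mutant replicates 1 to 3, against 181, 170 and 152 TPM in control replicates 1 to 3. By TMM-scaled CPM every mutant library was above every control library, with 700, 522 and 609 CPM in the mutants and 501, 471 and 414 CPM in the controls (log2 fold change 0.40 ± 0.13, edgeR adjusted p = 0.0724, not called), and gene totals cannot show whether its coding sequence was altered. The hepatocyte markers were abundant in both groups, with summed levels of 51039 to 59012 TPM in mutant livers and 64814 to 77192 TPM in control livers. With TMM scaling 5 of the 8 hepatocyte markers rose, 1 fell (Cyp3a11) and 2 were not called, with a median log2 fold change of 0.60, and on log2(TPM + 1) 2 rose and 3 fell. The part of this shift in the collagen results was not tested. A change in liver tissue RNA cannot tell fewer cells of a type from less RNA per cell. TPM place the mutant libraries lower than TMM-scaled CPM do: over all genes the median log2 fold change was 0 with TMM, -0.40 at library totals and -0.55 on log2(TPM + 0.1).

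The collagens that build fibrils and filaments were lower in the mutant livers, and the most abundant liver collagen, Col18a1, did not pass the test. Of the 44 members, 25 had enough counts to be tested and 19 did not. Among the 25 tested, 11 fell, 0 rose and 14 did not pass. Over all tested genes 6.82% were called lower and 6.64% higher, or 974 lower and 949 higher, which became 4508 lower and 293 higher at library totals. For the count of 0 higher collagens, edgeR at an unadjusted p under 0.05 also gave 0, and DESeq2 gave 0. By class, 5 of 7 tested fibrillar members fell, 1 of 6 of the basement membrane, 3 of 4 of type VI, 2 of 4 FACITs (collagens that attach to the surface of fibrils), and 0 of the 4 tested transmembrane and short-chain members. The median log2 fold change was -2.07 for the fibrillar class, -1.46 for type VI, -1.01 for the FACITs and 0.05 for the basement membrane class, against 0 for all tested genes. The CPM of every mutant library lay below that of every control library in 14 of the 25, where the same held for 17.5% of all tested genes.

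**Figure D1:**
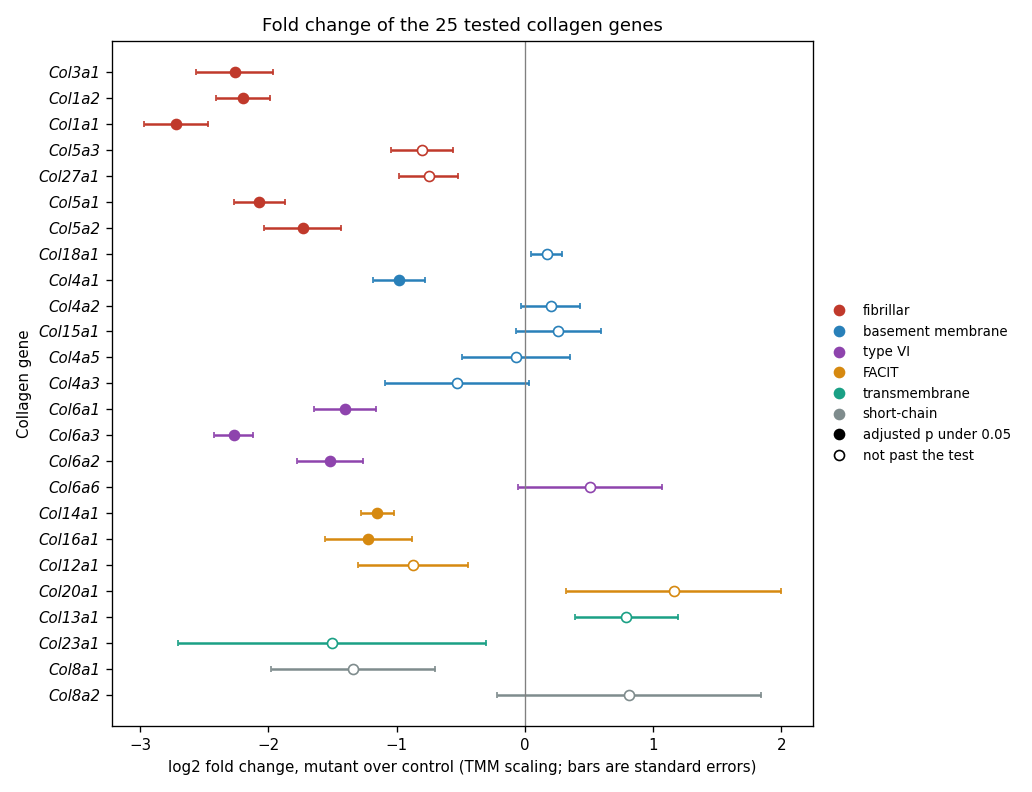
Log2 fold change (mutant over control, horizontal axis) of each tested collagen gene, with its standard error as a bar. Filled points passed edgeR's test at an adjusted p under 0.05. All 11 filled points lie left of 0, and Col1a1 is farthest left at -2.72.

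Type I and type III collagen, the main components of liver scar, fell in the mutant livers. Col1a1 (ENSMUSG00000001506.10, chromosome 11, 94936224 to 94953042, mm10), which encodes the α1 chain of type I collagen, had 4.42, 6.29 and 5.06 CPM in mutant replicates 1 to 3, against 28.7, 48.0 and 27.1 CPM in control replicates 1 to 3. Every mutant library was far below every control library, and control replicate 2 was the highest. The log2 fold change was -2.72 ± 0.25 (edgeR adjusted p = 6.8e-04), a 6.58-fold lower level. Its partner chain gene Col1a2 (chromosome 6, 4504814 to 4541544) had 6.67, 8.09 and 5.67 CPM in the mutants and 30.0, 39.9 and 24.2 CPM in the controls, with control replicate 2 again the highest (log2 fold change -2.20 ± 0.21, edgeR adjusted p = 8.0e-04). Col3a1 (chromosome 1, 45311538 to 45349706), the single chain gene of type III collagen and the fibrillar gene with the highest mean TPM in control livers, had 6.25, 13.4 and 15.9 CPM in the mutants and 53.3, 64.0 and 53.2 CPM in the controls (log2 fold change -2.26 ± 0.30, edgeR adjusted p = 0.00291). Mutant replicate 1 was the lowest of its group for Col3a1, and the groups did not overlap.

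The promoter windows of Col1a2 and Col3a1, which RefSeq (GRCm38.p6) gives as 250 bases before to 50 bases after a start site, are shown because both genes fell and their windows differ in composition. Both lie on the plus strand, at chr6:4505368-4505667 and chr1:45311288-45311587. Capitals mark matches on either strand. The motifs searched were CCAAT, which the factor NF-Y is known to bind, and the common promoter element GGGCGG, known as the box read by Sp factors. Also searched were TATAAA, the textbook core promoter element, and finally AGGTCA, the half-site of nuclear receptors.
Col1a2: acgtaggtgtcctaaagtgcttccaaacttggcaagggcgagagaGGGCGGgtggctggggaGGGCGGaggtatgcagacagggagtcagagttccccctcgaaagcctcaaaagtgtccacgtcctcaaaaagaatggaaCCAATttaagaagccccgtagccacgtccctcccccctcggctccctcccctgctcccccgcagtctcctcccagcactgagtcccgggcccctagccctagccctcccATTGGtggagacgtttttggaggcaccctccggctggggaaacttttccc
Col3a1: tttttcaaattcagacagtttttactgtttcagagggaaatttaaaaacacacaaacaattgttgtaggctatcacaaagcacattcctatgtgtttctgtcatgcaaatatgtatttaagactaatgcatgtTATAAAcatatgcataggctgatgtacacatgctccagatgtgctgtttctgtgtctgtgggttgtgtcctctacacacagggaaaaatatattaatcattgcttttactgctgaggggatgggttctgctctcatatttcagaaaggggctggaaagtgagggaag
The Col1a2 window is 61.0% G and C and holds 2 CCAAT and 2 GGGCGG matches, whereas the Col3a1 window is 37.7% G and C and holds 1 TATAAA match. Windows were in the table for 35 of the 44 collagens, among them 8 of the 11 that fell and 12 of the 14 that did not pass. Of the 8, 3 held CCAAT, 5 GGGCGG, 1 TATAAA and 0 AGGTCA. Of the 12, 4 held CCAAT, 9 GGGCGG, 1 TATAAA and 2 AGGTCA. A gene with several windows, such as Col6a2 or Col18a1, was counted as holding a motif where any of its windows did. Over all 32851 windows in the table, each counted singly, the shares were 37.4% for CCAAT, 35.7% for GGGCGG, 13.6% for TATAAA and 16.3% for AGGTCA. A match is a description of the letters only.

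Type V collagen, which is built into type I fibrils and sets their diameter, has 3 chain genes, of which 2 fell. Col5a1 had 3.24, 2.57 and 2.74 CPM in mutant replicates 1 to 3, against 9.68, 13.5 and 12.7 CPM in control replicates 1 to 3 (log2 fold change -2.07 ± 0.20, edgeR adjusted p = 8.0e-04). Col5a2, which neighbours Col3a1 on chromosome 1 on the opposite strand, had 1.10, 1.33 and 0.871 CPM in the mutants and 3.98, 3.93 and 3.08 CPM in the controls (log2 fold change -1.73 ± 0.30, edgeR adjusted p = 0.00924). In both genes the groups lay well apart. Col5a3, the third chain gene, had 15.1, 11.1 and 21.6 CPM in the mutants and 22.0, 30.5 and 30.8 CPM in the controls. Here mutant replicate 3 came close to control replicate 1, and with a log2 fold change of -0.80 ± 0.24 the gene missed the threshold (edgeR adjusted p = 0.0613). DESeq2 called it (adjusted p = 0.00662), as did edgeR without mutant replicate 3 (adjusted p = 0.0210). Leaving out any other library gave an edgeR adjusted p of 0.0699 to 0.161. On median-centred log2(TPM + 1) Col5a3 was not called either (-0.61, limma adjusted p = 0.0999). Col27a1, a fibrillar collagen best known from cartilage, averaged 9.49 ± 3.18 CPM in mutant livers and 15.9 ± 1.00 CPM in control livers (SD, n = 3 each). It also missed the threshold (-0.75 ± 0.23 on the log2 scale, edgeR adjusted p = 0.0651). Col27a1 was called by DESeq2 (adjusted p = 0.0154) and by edgeR without mutant replicate 2 (adjusted p = 0.0172). Without any other single library its edgeR adjusted p was 0.124 to 0.167. On median-centred log2(TPM + 1) its log2 fold change was -0.45 (limma adjusted p = 0.132).

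**Figure D2:**
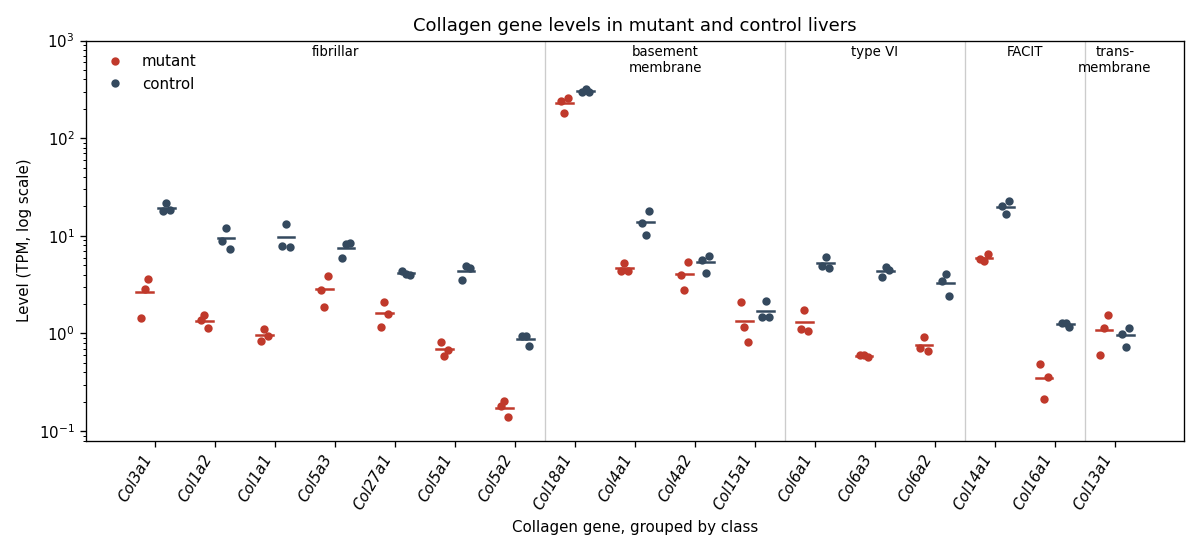
Level in TPM (log axis) of the tested collagen genes that were called or averaged at least 1 TPM over all libraries, grouped by class. Points are libraries and lines are group means, with mutant livers left of control livers for each gene. Col18a1 stands above all others near 200 to 300 TPM, and the 3 mutant points lie below the 3 control points in each of the 7 fibrillar genes. TPM place the mutant libraries lower over all genes (median log2 fold change -0.55 on log2(TPM + 0.1)). By TMM-scaled CPM every mutant library was also below every control library in the 7, as in 17.5% of all tested genes.

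The 3 main type VI chains fell together. Col6a1 and Col6a2, neighbours on the same strand of chromosome 10, encode chains that join Col6a3's product in the filament. Col6a1 had 4.19, 7.16 and 4.13 CPM in mutant replicates 1 to 3, against 12.8, 16.0 and 12.0 CPM in control replicates 1 to 3 (log2 fold change -1.40 ± 0.24, edgeR adjusted p = 0.00958). Mutant replicate 2 stood above the other mutants but below every control. Col6a2 had 2.62, 3.69 and 2.48 CPM in the mutants and 8.77, 10.3 and 6.07 CPM in the controls (log2 fold change -1.52 ± 0.26, edgeR adjusted p = 0.00958). Col6a3 (chromosome 1, 90765923 to 90843971), whose C-terminal fragment is the circulating peptide endotrophin, had 3.95, 4.31 and 3.90 CPM in the mutants and 17.2, 21.8 and 19.9 CPM in the controls. Its log2 fold change of -2.27 ± 0.15 had the smallest p of any collagen (edgeR adjusted p = 2.5e-04), and the mutant libraries were close to each other. Col6a6 had under 1 CPM in every library, with 0.576, 0.651 and 0.774 CPM in the mutants and 0.348, 0.785 and 0.270 CPM in the controls (log2 fold change 0.51 ± 0.56, edgeR adjusted p = 0.606, not called).

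Of the 6 tested basement membrane collagens, Col4a1 alone was called, and Col18a1 was the highest of all collagens. Col4a1 and Col4a2 encode the widespread chains of type IV collagen and are transcribed head to head on chromosome 8, with annotated ends that overlap by 22 bases. Col4a1 (11198423 to 11312826, minus strand) had 20.8, 27.2 and 21.3 CPM in mutant replicates 1 to 3, against 44.4, 34.1 and 58.3 CPM in control replicates 1 to 3. It fell by 0.98 ± 0.20 on the log2 scale (edgeR adjusted p = 0.0174), a call lost without mutant replicate 1 (adjusted p = 0.0678). Col4a2 (11312805 to 11449287, plus strand) had 22.4, 17.1 and 31.2 CPM in the mutants and 21.8, 16.2 and 23.6 CPM in the controls, so the groups overlapped (log2 fold change 0.20 ± 0.23, edgeR adjusted p = 0.623). Its direction was not stable, with -0.20 at library totals and -0.06 without mutant replicate 3. The windows around the shared start region are shown because the pair starts 21 bases apart in the annotation and edgeR called Col4a1 but not Col4a2. The Col4a1 window is on the minus strand at chr8:11312777-11313076 and the Col4a2 window on the plus strand at chr8:11312555-11312854, with capitals as above.
Col4a1: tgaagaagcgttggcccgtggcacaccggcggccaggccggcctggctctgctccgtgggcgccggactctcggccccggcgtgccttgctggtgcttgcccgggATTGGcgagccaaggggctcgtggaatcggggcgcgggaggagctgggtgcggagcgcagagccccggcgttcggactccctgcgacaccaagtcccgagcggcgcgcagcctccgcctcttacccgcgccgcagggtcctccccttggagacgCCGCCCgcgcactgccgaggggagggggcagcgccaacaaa
Col4a2: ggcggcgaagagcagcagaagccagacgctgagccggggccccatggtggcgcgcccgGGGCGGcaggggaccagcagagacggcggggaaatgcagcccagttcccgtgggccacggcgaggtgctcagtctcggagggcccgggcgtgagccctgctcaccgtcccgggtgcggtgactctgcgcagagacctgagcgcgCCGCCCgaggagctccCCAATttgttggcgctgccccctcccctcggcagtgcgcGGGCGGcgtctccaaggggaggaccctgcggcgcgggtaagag
Both are rich in G and C, at 74.0% for Col4a1 and 73.7% for Col4a2, and neither holds TATAAA or AGGTCA. The Col4a1 window holds 1 CCAAT match and 1 GGGCGG match, and the Col4a2 window 1 CCAAT match and 3 GGGCGG matches. Within a library the ratio of Col4a1 to Col4a2 by TPM was 1.08, 1.86 and 0.798 in mutant replicates 1 to 3, against 2.38, 2.46 and 2.88 in control replicates 1 to 3. This ratio does not depend on library scaling and the groups did not overlap (two-sided exact permutation p = 0.1, the smallest that 3 libraries against 3 can give, 0.2 adjusted over 6 ratios).

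Col18a1 (chromosome 10, 77052178 to 77166548), which encodes the type XVIII collagen of basement membranes and the source of endostatin, and which hepatocytes are known to make, was far above the other collagens. It had 1055, 871 and 1160 CPM in mutant replicates 1 to 3, against 900, 969 and 875 CPM in control replicates 1 to 3, with overlapping groups (log2 fold change 0.17 ± 0.12, edgeR adjusted p = 0.390). By TPM it had 242, 183 and 260 in the mutants and 299, 322 and 296 in the controls, where the groups did not overlap. Its direction therefore follows the scaling, with -0.23 at library totals and -0.43 on log2(TPM + 1), where limma called it lower (adjusted p = 0.0376). Col18a1 overlaps Slc19a1, annotated on the opposite strand, and whether counting used strand is not given in the sources used here. Col15a1, of the same multiplexin family, had 9.24, 5.58 and 3.71 CPM in the mutants and 4.50, 6.55 and 4.45 CPM in the controls, with wide spread among the mutants (log2 fold change 0.26 ± 0.33, edgeR adjusted p = 0.665). Its sign turned at library totals (-0.13) and without mutant replicate 1 (-0.15). Col4a5 and Col4a3, chains of specialised basement membranes such as that of the kidney glomerulus, averaged 1.72 ± 0.826 and 0.267 ± 0.0530 CPM in mutant livers, against 1.81 ± 0.383 and 0.386 ± 0.115 CPM in control livers (SD, n = 3 each). Neither was called (log2 fold change -0.07 ± 0.42 for Col4a5 and -0.53 ± 0.56 for Col4a3, edgeR adjusted p = 0.934 and 0.587).

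Among the FACITs, Col14a1 (chromosome 15, 55307750 to 55520803), which averaged 5.92 TPM in mutant livers and 19.9 TPM in control livers, had 22.6, 23.6 and 25.8 CPM in mutant replicates 1 to 3, against 54.6, 44.7 and 60.6 CPM in control replicates 1 to 3. All mutant libraries lay below all controls, and it fell by 1.15 ± 0.13 on the log2 scale (edgeR adjusted p = 0.00171). Col16a1 had 1.75, 0.837 and 1.32 CPM in the mutants and 3.18, 3.16 and 2.81 CPM in the controls. Its fall of 1.22 ± 0.34 was at the edge of the test (edgeR adjusted p = 0.0486), and it was lost on leaving out any one of the 6 libraries, where the adjusted p was 0.0587 to 0.131, and with the replicate block (0.0707). On median-centred log2(TPM + 1) its log2 fold change was -0.19 and the call was also lost (limma adjusted p = 0.253). Col12a1, which is known to respond to mechanical load, had 2.59, 0.775 and 2.26 CPM in the mutants and 3.46, 4.08 and 2.74 CPM in the controls. Mutant replicate 1 came close to control replicate 3, and the gene was not called (log2 fold change -0.87 ± 0.43, edgeR adjusted p = 0.226). Col20a1 stayed under 1 CPM, with 0.523, 0.775 and 0.193 CPM in the mutants and 0.413, 0.0449 and 0.202 CPM in the controls (log2 fold change 1.16 ± 0.84, edgeR adjusted p = 0.401).

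Transmembrane and short-chain collagens were low. Col13a1, a transmembrane collagen of cell adhesion sites, had 1.44, 2.97 and 3.74 CPM in mutant replicates 1 to 3, against 1.65, 1.21 and 1.84 CPM in control replicates 1 to 3 (log2 fold change 0.79 ± 0.40, edgeR adjusted p = 0.238). Col23a1 had 1.13, 0.155 and 0.129 CPM in the mutants and 0.239, 0.247 and 3.58 CPM in the controls. One library decided its value, since the log2 fold change of -1.50 ± 1.20 became 0.96 without control replicate 3. Col8a1 had 0.157, 0.186 and 0.322 CPM in the mutants and 0.783, 0.269 and 0.630 CPM in the controls, and Col8a2 had 0.314, 0.372 and 0.0967 CPM in the mutants and 0.196, 0.247 and 0 CPM in the controls. Both are network-forming chains of vessel walls and the eye, and neither passed (edgeR adjusted p = 0.210 for Col8a1 and 0.657 for Col8a2).

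The other 19 members were too low to judge. Col2a1, Col11a1, Col6a4, Col19a1 and Col26a1 had 0 counts in all 6 libraries, which allows up to 3 counts, or 0.0695 to 0.0837 CPM, per library. Col9a1, Col9a2, Col22a1, Col10a1, Col17a1 and Col28a1 stayed at or under 5 counts in every library. The remaining 8 were Col11a2, Col24a1, Col4a4, Col4a6, Col6a5, Col9a3, Col25a1 and Col7a1. Their highest value was in Col11a2, with 6.89, 7.10 and 8.65 estimated counts in mutant replicates 1 to 3, against 73.7, 16.7 and 3.75 in control replicates 1 to 3, so that 1 control library carried most of it. Col7a1, the anchoring fibril collagen of skin, had 0.564, 52.9 and 2.30 estimated counts in the mutants and 0, 48.9 and 5.16 in the controls. Col25a1 had 5.54, 11.8 and 13.6 estimated counts in the mutants and 4.93, 1.35 and 0 in the controls, and its groups overlapped by TPM. Col6a5 lay the other way, with 0, 3.23 and 3.68 estimated counts in the mutants and 10.1, 5.29 and 23.9 in the controls, and its groups overlapped by CPM. In Col11a2 and Col7a1 the spread within a group was wider than any difference between groups.

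Summed by class, the fibrillar collagens held 8.67, 10.3 and 12.1 TPM in mutant replicates 1 to 3, against 50.2, 65.1 and 51.0 TPM in control replicates 1 to 3, and the mutant mean was 18.7% of the control mean. The type VI sum was 2.75 ± 0.512 TPM in mutant livers and 13.0 ± 1.84 TPM in control livers (SD, n = 3 each), or 21.1%. The FACIT sum was 6.74 ± 0.606 TPM in mutant livers and 22.3 ± 3.16 TPM in control livers, or 30.3%. For the basement membrane class the sum was 239 ± 41.2 TPM in mutant livers and 327 ± 10.4 TPM in control livers, or 72.9%, and without Col18a1 it was 48.3%. On TMM-scaled CPM the percentages were 29.3% for the fibrillar class, 30.4% for type VI, 46.0% for the FACITs and 110% for the basement membrane class, which stood at 74.5% without Col18a1. Col18a1 alone made up 87.8% of all collagen TPM in mutant livers and 72.8% in control livers. The fibrillar share of collagen TPM was 3.19%, 4.81% and 4.12% in mutant replicates 1 to 3, against 12.3%, 14.8% and 12.4% in control replicates 1 to 3. These sums are descriptions and were not tested.

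**Figure D3:**
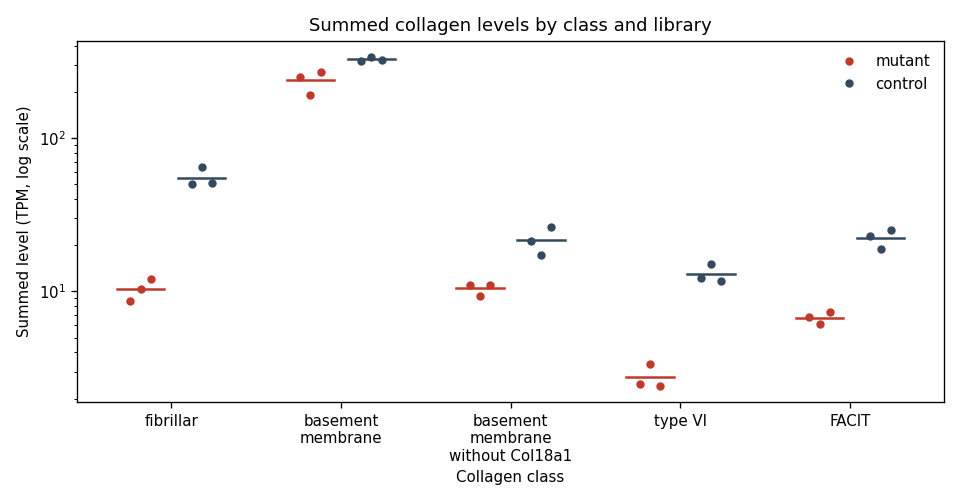
Summed TPM (log axis) of 4 collagen classes in each library, with the basement membrane class also shown without Col18a1. Points are libraries and lines are group means, mutant left of control. The fibrillar sums are 8.67 to 12.1 TPM in mutant livers and 50.2 to 65.1 TPM in control livers.

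Chains that assemble together were compared by their TPM ratio within a library. For Col1a1 over Col1a2 the ratio was 0.721 ± 0.106 in mutant livers and 1.01 ± 0.117 in control livers (SD, n = 3 each), with no overlap (two-sided exact permutation p = 0.1, adjusted 0.2). Col6a1 over Col6a3 gave 2.20 ± 0.603 in mutant livers and 1.22 ± 0.135 in control livers, again with no overlap (exact permutation p = 0.1, adjusted 0.2). The ratio of Col6a1 to Col6a2 was 1.69 ± 0.168 in mutant livers and 1.62 ± 0.272 in control livers (exact permutation p = 0.6). The groups also overlapped for Col5a1 over Col5a2 and for Col3a1 over Col1a1 (exact permutation p = 0.4 for each). With 3 libraries a group, none of the 6 ratios could reach a p under 0.05.

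**Figure D4:**
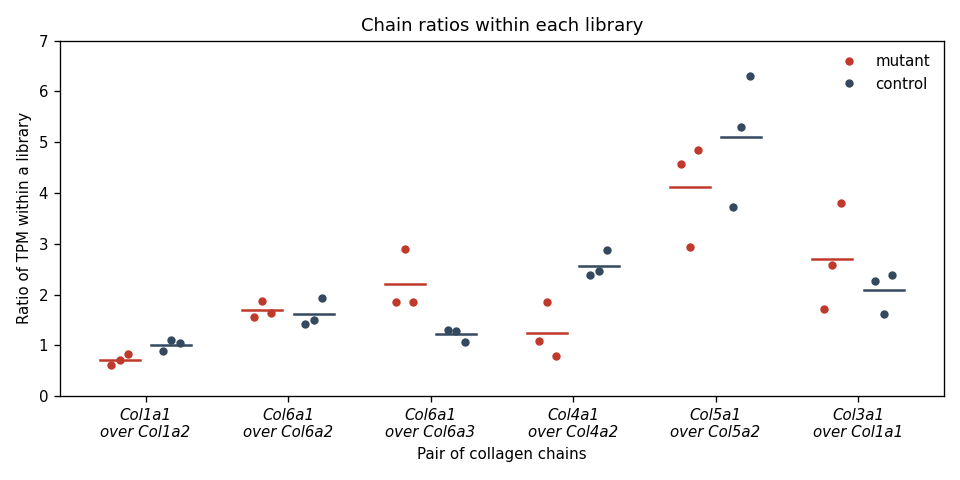
Ratio of TPM between pairs of collagen chains within each library (vertical axis, no unit). Points are libraries and lines are group means, mutant left of control. Col4a1 over Col4a2 and Col1a1 over Col1a2 lie lower, and Col6a1 over Col6a3 higher, in all mutant libraries.

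Genes that act on collagen chains were taken in the order of their steps. Of 16 tested genes of modification and folding, 3 fell, 1 rose and 12 did not pass, with a median log2 fold change of -0.20. Serpinh1, the collagen chaperone HSP47, averaged 3.77 ± 1.63 CPM in mutant livers and 9.34 ± 1.69 CPM in control livers (log2 fold change -1.31 ± 0.32, edgeR adjusted p = 0.0327). Plod2, a lysyl hydroxylase of the telopeptides, fell by 2.41 ± 0.53 (edgeR adjusted p = 0.0230). Its level was low, with 0.257 ± 0.0759 CPM in mutant livers and 1.38 ± 0.576 CPM in control livers, so few counts carry its fold change. Crtap, part of the prolyl 3-hydroxylase complex, fell by 1.08 ± 0.25 (edgeR adjusted p = 0.0264). Each of the 3 calls was lost on leaving out any of several libraries. Without control replicate 1 the edgeR adjusted p was 0.0700 for Serpinh1, 0.101 for Plod2 and 0.0938 for Crtap. Without mutant replicate 1 it was 0.0947 for Serpinh1, 0.0818 for Plod2 and 0.0789 for Crtap, and without control replicate 2 it was 0.104 for Serpinh1, 0.0669 for Plod2 and 0.0671 for Crtap. Serpinh1 was also lost without control replicate 3 (0.0663), Plod2 without mutant replicate 3 (0.0609), and Crtap without mutant replicate 2 (0.0608) and with the replicate block (0.0510). Ppib, a proline isomerase of that complex that all cells use, rose by 0.45 ± 0.08 (edgeR adjusted p = 0.0110), but its log2 fold change was 0.06 at library totals, where the call was lost, and -0.14 on log2(TPM + 1). The call was also lost without control replicate 1 (adjusted p = 0.0518).

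Of 10 tested genes of export and propeptide cleavage, 2 fell, 0 rose and 8 did not pass. The 0 stood at 2 at an unadjusted p under 0.05 in edgeR and at 0 with DESeq2. Pcolce, an enhancer of procollagen C-propeptide removal, averaged 3.48 ± 0.461 CPM in mutant livers and 8.79 ± 1.54 CPM in control livers (SD, n = 3 each, edgeR adjusted p = 0.00610). Adamts2, which removes the N-propeptide, fell by 1.02 ± 0.21 (edgeR adjusted p = 0.0164), a call lost without mutant replicate 1 (0.0639) or control replicate 2 (0.0604). It was also lost with limma on median-centred log2(TPM + 1) (-0.32, adjusted p = 0.123). Among 7 tested crosslinking genes 4 fell and 3 did not pass, with a median log2 fold change of -1.22. The lysyl oxidase Loxl2 had 1.30 ± 0.259 CPM in mutant livers and 5.52 ± 0.907 CPM in control livers (log2 fold change -2.09 ± 0.27, edgeR adjusted p = 0.00266). Tgm2, the tissue transglutaminase, had 95.5 ± 4.90 CPM in mutant livers and 204 ± 25.2 CPM in control livers (edgeR adjusted p = 9.7e-04). Pxdn, which crosslinks type IV collagen, fell by 1.22 ± 0.26 (edgeR adjusted p = 0.0195), a call lost without mutant replicate 1 (0.0537), control replicate 1 (0.0618) or control replicate 3 (0.0659). Loxl1 fell by 1.28 ± 0.35 (edgeR adjusted p = 0.0465), and its call was lost without any one of the 6 libraries (0.0648 to 0.156). With limma on median-centred log2(TPM + 1) the calls of Pxdn (-0.44, adjusted p = 0.0919) and Loxl1 (-0.32, adjusted p = 0.249) were lost too.

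None of the 10 tested collagen receptor genes was called by edgeR or DESeq2, and at an unadjusted p under 0.05 edgeR gave 2 lower. These were Ddr2, a collagen-binding tyrosine kinase, with a log2 fold change of -0.62 ± 0.25 (adjusted p = 0.146), and Lair1, an inhibitory receptor of immune cells, with -0.80 ± 0.34 (adjusted p = 0.158). Of 17 tested TGF-β ligand, receptor and response genes, 6 fell, 0 rose and 11 did not pass. At an unadjusted p under 0.05 edgeR gave 1 higher, and DESeq2 gave 0. Tgfbi, a collagen-binding matrix protein induced by TGF-β, fell by 0.98 ± 0.11 (edgeR adjusted p = 0.00164), and the receptor Tgfbr2 by 1.00 ± 0.15 (edgeR adjusted p = 0.00456). These 5 lists, in the order given, had 16, 10, 7, 10 and 17 tested genes. Together 16 genes were called, and this count fell to 8 without mutant replicate 1, 8 without control replicate 1 and 9 without control replicate 2. Over all tested genes 13.5% were called in either direction, or 1923, and this count fell to 882, 886 and 956 in the same 3 fits.

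Markers of the cells that make collagen also moved, and their part in the collagen result was not tested. Of 12 tested stellate cell markers 8 fell, 0 rose and 4 did not pass, with a median log2 fold change of -0.98. Their summed level was 125 to 140 TPM in mutant livers and 337 to 397 TPM in control livers. At an unadjusted p under 0.05 edgeR gave 0 higher, and DESeq2 gave 0. Pdgfrb, the receptor that defines these cells among others, had 5.00 ± 1.03 CPM in mutant livers and 12.1 ± 0.514 CPM in control livers (edgeR adjusted p = 0.00473), and Reln fell by 1.08 ± 0.16 (edgeR adjusted p = 0.00525). Dcn, a collagen-binding proteoglycan, fell by 0.79 ± 0.10 (edgeR adjusted p = 0.00295) and Ecm1 by 1.09 ± 0.14 (edgeR adjusted p = 0.00246). No marker of any list was at 0 in all libraries.

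Portal fibroblast and mesothelial markers summed to 4.48 to 6.74 TPM in mutant livers and 13.4 to 17.9 TPM in control livers, with 1 of 6 tested members lower (Entpd2, log2 fold change -1.28 ± 0.18, edgeR adjusted p = 0.00414). For smooth muscle and myofibroblast markers the sums were 3.04 to 7.05 TPM in mutant livers and 5.56 to 10.2 TPM in control livers. With TMM scaling their median log2 fold change was -0.04. Of these 5 tested markers 0 were called by edgeR or DESeq2, and 0 had an unadjusted p under 0.05 in edgeR. Sinusoidal endothelial markers summed to 42.7 to 65.6 TPM in mutant livers and 77.9 to 151 TPM in control livers, with 2 of 10 lower. This 2 became 0 without mutant replicate 1, mutant replicate 2, control replicate 1 or control replicate 3, 1 without mutant replicate 3 and 5 without control replicate 2. Macrophage markers summed to 55.2 to 107 TPM in mutant livers and 187 to 251 TPM in control livers, with 3 of 9 lower. This 3 became 0 without control replicate 1 or 2, 1 without mutant replicate 1, mutant replicate 2 or control replicate 3, and 6 without mutant replicate 3. The cholangiocyte sum was 22.5 to 38.1 TPM in mutant livers and 78.0 to 114 TPM in control livers. Spp1 supplied the difference, since the sum without it, taken after seeing the data, was 6.37, 7.96 and 3.70 TPM in mutant replicates 1 to 3 and 5.59, 6.47 and 6.19 TPM in control replicates 1 to 3. Of the 6 tested cholangiocyte markers, 1 was lower (Spp1, which other cells also make) and 1 higher (Sox9). The Sox9 call (log2 fold change 0.72 ± 0.20, edgeR adjusted p = 0.0488) was lost on leaving out any library but mutant replicate 2, where the adjusted p was 0.0887 to 0.169. It was also lost at library totals (0.33, adjusted p = 0.242), with the 1 CPM filter (adjusted p = 0.0520), with the replicate block (adjusted p = 0.0949) and with limma on log2(TPM + 1) (0.08, adjusted p = 0.625). All these marker sums are on TPM, which place the mutant libraries lower over all genes. With TMM scaling the median log2 fold change was -0.80 for the portal list and -0.66 for the sinusoidal endothelial list. For the macrophage and cholangiocyte lists it was -0.93 and 0.30.

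Fibrillar collagen was also set against the summed stellate markers of the same library, a sum of which Dcn and Ecm1 made up 71.2% in mutant livers and 72.9% in control livers. The ratio of summed fibrillar TPM to summed stellate marker TPM was 0.0694, 0.0734 and 0.0940 in mutant replicates 1 to 3, against 0.132, 0.193 and 0.129 in control replicates 1 to 3. The groups did not overlap and the mutant mean was 52.2% of the control mean. For type VI the ratio was 0.0199, 0.0238 and 0.0187 in the mutants and 0.0321, 0.0449 and 0.0295 in the controls, a mutant mean of 58.6%. The basement membrane ratio, which Col18a1 dominates, ran the other way, with 2.02, 1.37 and 2.10 in the mutants and 0.842, 1.01 and 0.813 in the controls. With portal fibroblast and mesothelial markers below the line instead, the mutant means were 50.7% for the fibrillar class, 56.8% for type VI and 201% for the basement membrane class. Without Dcn and Ecm1, an alternative chosen after seeing the data, the mutant means per stellate marker were 49.0% for the fibrillar class, 55.2% for type VI and 193% for the basement membrane class, and the groups did not overlap. Single low markers fell further than the sum, among them Ngfr, with 0.458 TPM in mutant livers and 2.79 TPM in control livers, and Lrat, with 1.20 TPM in mutant livers and 4.62 TPM in control livers. These ratios were not tested, and they do not depend on how libraries are scaled.

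**Figure D5:**
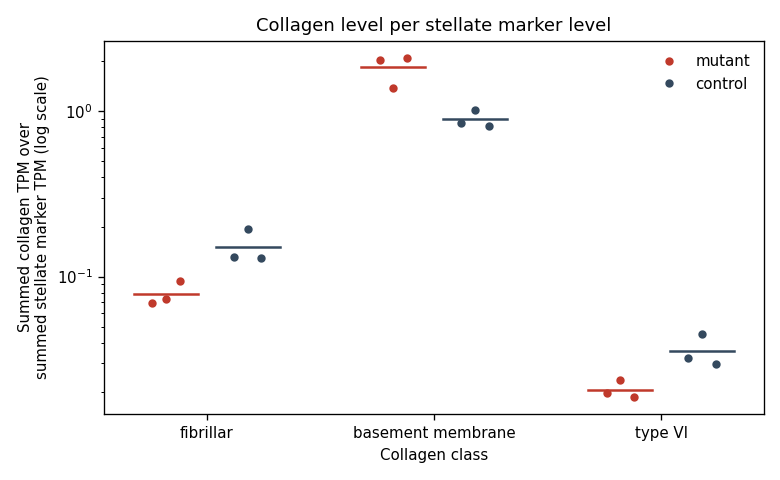
Ratio of summed collagen TPM to summed stellate marker TPM within each library (log axis) for 3 collagen classes. Points are libraries and lines are group means, mutant left of control. Fibrillar ratios are 0.0694 to 0.0940 in mutant livers and 0.129 to 0.193 in control livers, and basement membrane ratios are higher in every mutant library.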

How the data were processed

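Poly(A)-enriched liver RNA was sequenced as paired reads of 150 bases on a NovaSeq6000, per the labels' protocols, and cutadapt, STAR and mm10 are named in the submitters' processing notes. The authors deposited estimated counts and TPM per gene for 6 libraries; the sources used here do not give the counting program, versions, annotation or strand setting. Both tables carry the same measurements, since deposited estimated counts equalled TPM times a gene factor and a library factor. The floor of 3 counts covers counting error only.

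Estimated counts were rounded and tested in edgeR 4.0.16 (R 4.3.3) with filterByExpr, TMM, the quasi-likelihood F-test on group and Benjamini-Hochberg adjustment over 14286 genes. Standard errors come from the F statistic. On simulated data the fit recovered 52% of the 2-fold and 78.9% of the 4-fold changes put in. A gene that was not called may therefore still have changed. p-values measure the spread between libraries, which may be technical. No pair was a duplicate (chi-square at least 47.7 per gene).

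Alternatives were RLE factors, library totals, no filter or 1 CPM in 3 libraries, DESeq2 1.42.0, robust fitting, a block for replicate number, leaving out each library, and limma 3.58.1 on log2(TPM + 1) or log2(TPM + 0.1) with a TPM minimum of 1 or none, or median-centred. Coordinates and overlaps come from GENCODE M21 on mm10, and 12 of the 25 tested collagens overlap a gene annotated on the opposite strand. Per-library values are given for collagens that were called or were among the 4 highest of their class by TPM, and for up to 4 genes with the smallest p from each list, of which 1 is not reported here; other members are summarised, with Col27a1, Col11a2, Col7a1, Col25a1, Col6a5, Ngfr and Lrat singled out after their values were seen. Members and gene lists were chosen with earlier results of these data known.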

Additional observations from a re-analysis of the deposited data

How the results depend on the processing

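Of the 11 collagens called lower, 9 kept direction and call in every one of 17 alternatives that tested them, and Col4a1 and Col16a1 were the exceptions given above. The number of collagens called lower was 9 to 14. With 3 libraries a group, precision is limited. Col4a3, Col6a6, Col20a1, Col8a1 and Col8a2 were tested but stayed under 1 CPM in every library. Few counts carry their values, so that they were not called says little about them. At library totals 4801 genes were called in place of 1923, with limma 7521 on log2(TPM + 1), 7159 without a filter, 7272 on log2(TPM + 0.1) and 1281 after median-centring, and leaving out a library gave 882 to 1514. Over the 5 collagen pathway lists 16 calls became 27 at library totals, 38, 38 and 36 in the same first 3 limma fits and 8 to 15 without a library. Over the marker lists 22 became 36 at library totals and 40, 35 and 40 in those fits.

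Class sums on CPM, and on TPM over the library median, were 29.3% and 28.5% of control for fibrillar, 30.4% and 32.3% for type VI, 46.0% for both in FACITs and 110% for both in basement membrane collagens. Without Col18a1 that class gave 48.3% on plain TPM and 74.5% on CPM. Per sinusoidal endothelial marker level the fibrillar class stood at 37.2%, type VI at 43.0% and the basement membrane class at 152%. Signs turned with scaling for uncalled genes. At library totals, on log2(TPM + 1), on log2(TPM + 0.1) and unfiltered, the log2 fold changes were -0.23, -0.43, -0.44 and -0.43 for Col18a1, -0.20, -0.34, -0.42 and -0.34 for Col4a2, -0.13, -0.23, -0.38 and -0.23 for Col15a1, and -0.09, -0.29, -0.30 and -0.29 for Tango2. Ppib, which was called higher, was at -0.14 in those 3 limma fits. Unfiltered on log2(TPM + 1), Col6a6 was at 0.00 and Myh11 at -0.07. Without a library the values ran from -0.06 to 0.37 for Col4a2, -0.15 to 0.52 for Col15a1, -0.51 to 0.20 for Col4a5, -3.23 to 0.96 for Col23a1 and -0.49 to 0.81 for Myh11. The cause was not tested.

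Libraries share replicate numbers across groups, but deviations of same-numbered libraries correlated at 0.0167, -0.00322 and 0.0634, so the numbers were not read as pairs. With the replicate block 10 collagens were called lower in place of 11 and 1558 genes in all.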
